A study of Mus musculus with 24 samples.

Results

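The data were read for 10 genes of iron handling in cultured mouse macrophages: the transferrin receptor gene Tfrc and its ligand gene Trf, the iron transporters Slc11a2 and Slc11a1, the exporter Slc40a1 and the hormone gene Hamp that closes it, the ferritin genes Fth1 and Ftl1, the heme oxygenase gene Hmox1 and the siderophore-binding gene Lcn2. They were chosen by name, for what their products do, with earlier results of these data known, out of the 55421 genes of the count table. All 10 were among the 16593 genes that passed the filter on low counts. Hamp passed that filter through the LPS libraries alone. The study asked how the aryl hydrocarbon receptor (AhR), a ligand-activated transcription factor, shapes gene expression in macrophages. Polyadenylated RNA of bone marrow-derived macrophages (BMDMs) was sequenced in 24 libraries, 4 groups of 6. Bone marrow was grown with 10 ng/ml GM-CSF and 2 ng/ml TGF-β, a mixture meant to give cells that resemble alveolar macrophages.

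The groups were wildtype (WT) BMDMs without stimulation, AhR-deficient BMDMs without stimulation, and both genotypes stimulated with lipopolysaccharide (LPS, a bacterial cell wall product) at 97 EU/ml from day 6 for 24 h. WT mice were C57BL/6J and AhR-deficient mice were of the strain B6.129-Ahr tm1Bra/J, which lacks AhR in every cell of the body, so bone marrow precursors lacked the receptor before the culture began. The study's methods give 6 animals per group, of both sexes and a range of adult ages, without stating the age or sex behind each library. The calcium ionophore A23187 (5 µM, 10 min) was added at the end of culture for the study's lipid measurements, which covered unstimulated and stimulated cultures. The methods refer to the same treatment for the sequenced cells, so the libraries of all groups are read here as ionophore-treated. Unstimulated therefore means without LPS. Whether stimulated and unstimulated cultures came from the same animals is not given in the sources used here. Cultures grown from whole marrow with GM-CSF may hold cells other than macrophages.

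Macrophages take up iron bound to transferrin through the transferrin receptor, and heme iron by engulfing aged red blood cells. DMT1 (Slc11a2) and NRAMP1 (Slc11a1) move iron out of endosomes and phagosomes, heme oxygenase frees it from heme, ferritin cages of heavy and light chains store it, and ferroportin (Slc40a1) exports it unless hepcidin (Hamp) binds and removes it. During infection, cells withhold iron from bacteria, among other ways with lipocalin 2 (Lcn2), which binds bacterial siderophores.

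Several of these mRNAs carry an iron-responsive element, a stem with a 6-base loop to which the iron regulatory proteins bind when iron is low. Bound before the coding sequence, these proteins block translation, and bound after it they protect the mRNA from decay, so that part of iron control does not show in mRNA levels. The strict form of the element, a bulged C, a paired stem of 5 bases and the loop CAGTGN, was searched in the spliced transcripts of GENCODE M21 (GRCm38, the same assembly as mm10). It was present in 4 of the 10 genes, against 294 of 21901 protein-coding genes (1.34%). Fth1, Ftl1 and Slc40a1 held 1 site each before the coding sequence, and Tfrc held 4 after it. Capitals mark the bulged C and the loop.
Fth1, chr19:9982732-9982761, plus strand: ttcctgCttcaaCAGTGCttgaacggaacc
Ftl1, chr7:45459778-45459807, minus strand: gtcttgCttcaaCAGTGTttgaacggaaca
Slc40a1, chr1:45925464-45925493, minus strand: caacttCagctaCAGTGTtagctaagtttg
Tfrc, chr16:32631219-32631248, plus strand: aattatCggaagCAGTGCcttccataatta
Tfrc, chr16:32631598-32631627, plus strand: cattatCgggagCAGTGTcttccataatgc
Tfrc, chr16:32631663-32631692, plus strand: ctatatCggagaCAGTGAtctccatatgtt
Tfrc, chr16:32631710-32631739, plus strand: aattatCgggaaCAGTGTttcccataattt
The 4 Tfrc sites lie close together in the same tail. A match is a description of letters and not evidence that a protein binds there.

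AhR and its partner ARNT bind DNA at the core GCGTG. RefSeq promoter windows (GRCm38.p6) were at hand for Tfrc, Slc11a1, Fth1, Ftl1, Lcn2 and Hamp. On either strand, GCGTG lay in a window of 4 of these 6 genes, while 32.4% of all 32851 windows held it. The 2 shares are not alike, since Tfrc and Fth1 have 2 windows each, and the windows of Lcn2 and Hamp held no match. The sites of Tfrc and Slc11a1, the genes among these 4 that differed between the genotypes without stimulation (below), are shown with the core, or its reverse complement, in capitals.
Tfrc, chr16:32608771-32608791, plus strand: gccaatcgCACGCgctctccc
Tfrc, chr16:32608824-32608844, plus strand: actccgcgCACGCactggctg
Tfrc, chr16:32608980-32609000, plus strand: ttcagaagGCGTGcggagcgc
Tfrc, chr16:32609072-32609092, plus strand: tggtcctcGCGTGgcgggcgg
Slc11a1, chr1:74375193-74375213, plus strand: tgggaaggGCGTGggttccca

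The 24 libraries held 45106052 to 76992663 counts on genes. Ahr counts over the whole gene cover exons outside the targeted part and therefore check nothing about the deletion. They were lower in AhR-deficient cells without stimulation (log2 fold change -1.93, SE 0.36, adjusted p = 9.71e-04) and higher after LPS (1.36, SE 0.35, adjusted p = 0.011). Of 4 AhR target genes, 2 were called lower in AhR-deficient cells in each state, where 3.57 and 6.19% of all genes were called lower. In each state 1 of the 4 lay above 0, and 1 was called for the interaction (4.3% of all genes). Ahrr, named after its values were seen, was among those called lower (-6.34 and -8.19). Macrophage markers were abundant in all groups, and none of the 7 was called between the genotypes without stimulation (4.48% of all genes) and 1 was called higher in AhR-deficient cells after LPS (2.17% of all genes were called higher). Their median sum without stimulation was 17732 CPM in WT and 29275 CPM in AhR-deficient libraries, with overlapping ranges. Of 8 alveolar macrophage markers, 1 was called higher in AhR-deficient cells in each state (0.916 and 2.17% of all genes). Their median sum after LPS was 4770 CPM in WT and 7789 CPM in AhR-deficient libraries. Markers of other cells moved with genotype: 9 of the 11 neutrophil markers tested were called lower in AhR-deficient cells without stimulation (median log2 fold change -3.30, where 3.57% of all genes were called lower) and 7 of 11 after LPS (median -2.62, where 6.19% were). Of 5 dendritic cell markers tested, 3 were called lower and 1 higher without stimulation (median -4.65) and 4 lower after LPS (median -2.09), and of 6 mast cell and basophil markers 4 and 5 were called lower (medians -1.93 and -2.07). The 7 lymphocyte markers summed to 2.16 to 8.08 CPM in unstimulated WT libraries and 0 to 0.242 CPM in unstimulated AhR-deficient libraries. Their part in the genotype differences below was not tested. All 12 listed neutrophil markers had counts in every group. In bulk RNA, fewer cells of a type and less RNA per cell cannot be told apart.

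More of the iron genes were called with LPS than between the genotypes, which also held over all genes tested. The 10 were chosen with earlier results of these data known, so their counts beside the shares of all genes are a description and no test. A gene was called at a Benjamini-Hochberg adjusted p of at most 0.05 in edgeR's quasi-likelihood test, over all genes tested, together with a change of at least 2-fold, except for the interaction, where the adjusted p alone decided. With LPS, 6 of the 10 genes were called in WT cells, all higher, where 24.9% of all genes tested were called (13.2% higher and 11.8% lower). In AhR-deficient cells 8 were called, 7 higher and 1 lower, where 30.8% of all genes were called (15.1% higher and 15.7% lower). Both counts include Hamp, which had to differ because it passed the filter through the LPS libraries, and without it they are 5 and 7. Between the genotypes, 3 of 10 were called without stimulation, Tfrc and Lcn2 lower and Slc11a1 higher in AhR-deficient cells, against 4.48% of all genes (0.916% higher and 3.57% lower). After LPS, Lcn2 (lower) and Hamp (higher) were called, 2 of 10 against 8.36% of all genes (2.17% higher and 6.19% lower). The response to LPS differed between the genotypes for Tfrc alone, where it was higher in AhR-deficient cells, 1 of 10 against 4.3% of all genes for the interaction (1.95% above 0 and 2.34% below).

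With Hamp included, the median log2 fold change of the 10 genes with LPS was 1.57 in WT cells and 1.84 in AhR-deficient cells, while the medians over all genes tested were 0.03 and -0.03. Between the genotypes the medians of the 10 were 0.20 without stimulation and 0.22 after LPS, beside -0.01 and -0.05 over all genes. In WT cells 5 of the 10 had stimulated libraries that did not overlap the unstimulated ones (22.4% of all genes), and in AhR-deficient cells 7 did (28.5% of all genes). Without Hamp these were 4 and 6 of 9. Between the genotypes, the libraries of Tfrc, Lcn2 and Hmox1 did not overlap without stimulation (3 of 10, against 5.15% of all genes), and those of Hamp did not after LPS (1 of 10, against 7.11%).

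**Figure D1:**
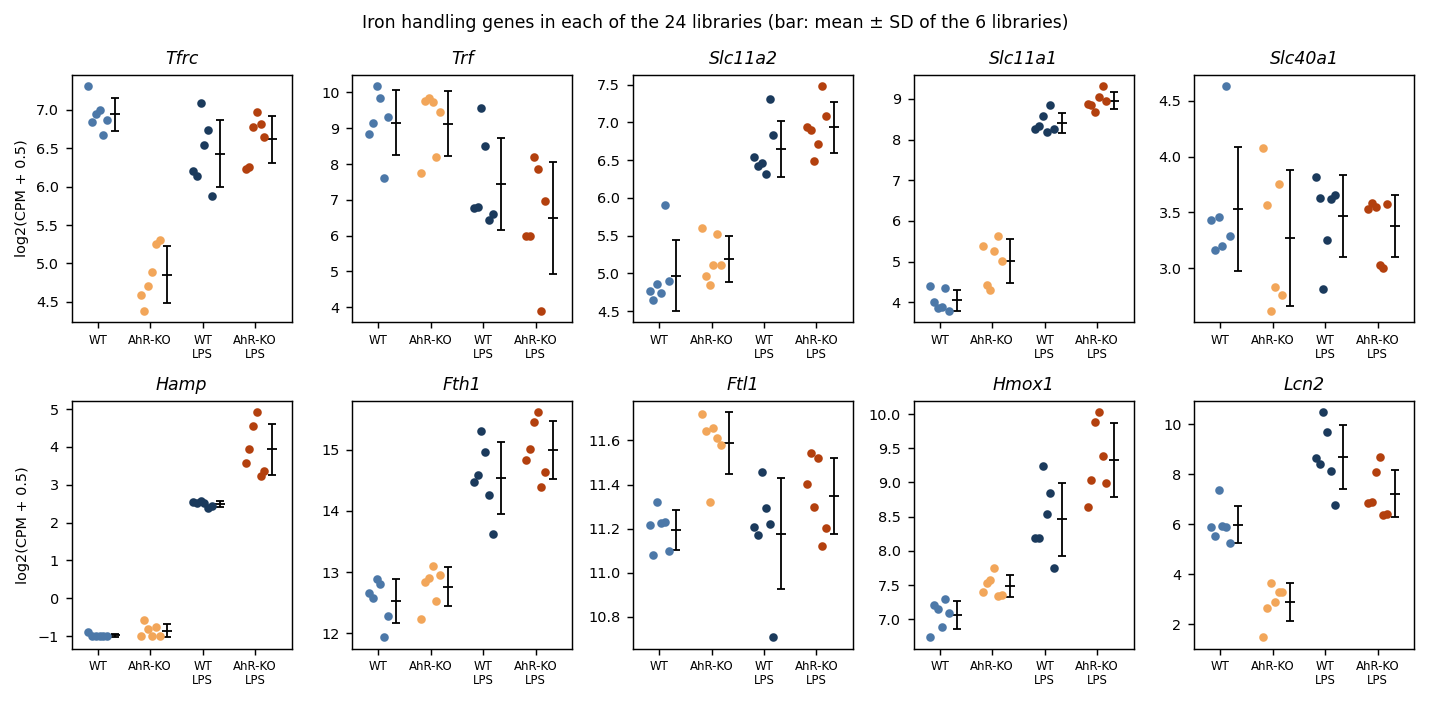
Level of each of the 10 iron genes in each of the 24 libraries, as log2 of CPM (counts scaled to a common library size by TMM) plus 0.5; points are libraries, and the bar beside each group is the mean ± SD of its 6 libraries. Tfrc stands low in unstimulated AhR-deficient cells alone, Hamp lies near the bottom of its axis in all unstimulated libraries, and the ranges of Slc40a1 overlap in all 4 groups.

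Levels can be set beside each other between genes only per length. As TPM, the transcript share of a library per length, computed from the counts and the exon lengths in the table, Fth1 and Ftl1 stood far above the others without stimulation. These lengths merge the exons of a gene's transcripts: 2623 bases for Lcn2 and 6185 for Tfrc, whose longest coding transcripts have 915 and 4890. The order of genes close in level therefore depends on the length used. In unstimulated WT cells Fth1 was at 4130 ± 1542 TPM and Ftl1 at 4033 ± 851 (SD, n = 6), with overlapping libraries. The Ftl1 row held only 51.4 to 53.1% of the counts of its gene and pseudogene rows, so its level and its order against Fth1 are uncertain. Trf, 77.3% of whose 100-base stretches also occur in the transcript of another locus that was not analysed here, followed at 489 ± 311, overlapping Hmox1 at 175 ± 33.8, which overlapped Lcn2 at 65.3 ± 52.3, and Lcn2 overlapped Tfrc at 46.2 ± 11.5. Slc11a2 (11.1 ± 2.16) and Slc11a1 (9.88 ± 1.44) overlapped one another, Slc40a1 was at 2.84 ± 0.775 and Hamp at 0.0353 ± 0.0864.

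The order changed in the other groups. In unstimulated AhR-deficient cells Lcn2 (6.57 ± 3.28 TPM) and Tfrc (10.4 ± 3.17 TPM) ranked eighth and seventh, below Slc11a1 (19.2 ± 6.05 TPM), with overlapping libraries between each neighbouring pair from Slc11a1 down to Slc40a1. After LPS, Fth1 reached 15453 ± 7869 TPM in WT and 17620 ± 7176 TPM in AhR-deficient cells and was then, by mean TPM, rank 3 and rank 2 of all genes in the table. Its libraries lay above those of Ftl1 in both stimulated groups. Slc40a1 was the lowest of the 10 after LPS, at 2.39 ± 0.602 TPM in WT and 1.97 ± 0.492 TPM in AhR-deficient cells, below Hamp at 25.5 ± 5.68 and 71.8 ± 41.6 TPM.

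**Figure D2:**
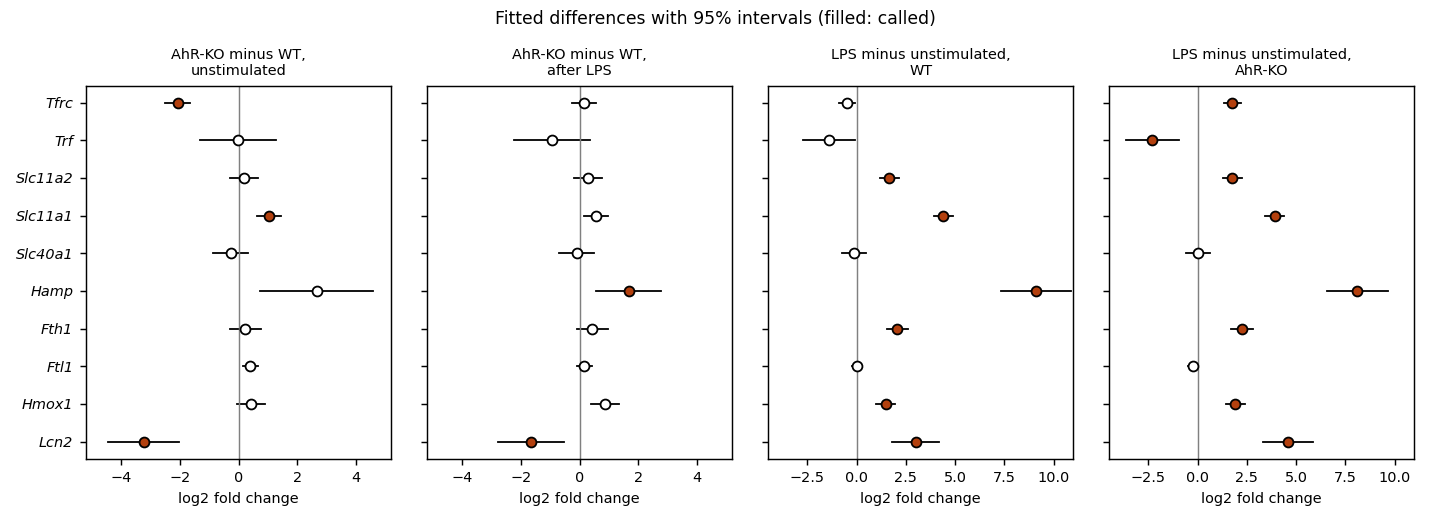
Fitted log2 fold changes of the 10 iron genes in 4 comparisons, with 95% intervals from edgeR; filled points were called. The LPS panels use a wider axis than the genotype panels, and the interval of Slc40a1 spans 0 in all 4.

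Tfrc encodes transferrin receptor 1, which carries iron-loaded transferrin into the cell (chr16:32608920-32632794, plus strand, mm10). Without stimulation its level in WT libraries ran from 102 to 158 CPM with a median of 120, and in AhR-deficient libraries from 20.3 to 38.9 CPM with a median of 27.3. All 6 AhR-deficient libraries lay below all 6 WT libraries. The log2 fold change was -2.08 (SE 0.21, adjusted p = 4.38e-07 in edgeR's quasi-likelihood test), a level 4.23-fold lower, and Tfrc ranked 29 of the 16593 genes by p.

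After LPS the genotypes overlapped. WT libraries held 58.4 to 135 CPM of Tfrc (median 82.9) and AhR-deficient libraries 74.4 to 125 CPM (median 104), a log2 fold change of 0.16 (SE 0.20, adjusted p = 0.78) whose 95% interval ran from -0.25 to 0.57 and which fell below 0 with scaling by total library size. LPS thus went with a 3.41-fold higher level in AhR-deficient cells (log2 1.77, SE 0.20, adjusted p = 1.56e-07, no overlap). In WT cells the fitted change was -0.47 (SE 0.20, adjusted p = 0.0678), which was not called.

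The difference between these responses was itself tested: the interaction was 2.24 on the log2 scale (SE 0.28, adjusted p = 5.34e-05), and Tfrc ranked 19 of all genes by p. Compared within the runs of 8 consecutive library numbers (17 to 24, 25 to 32 and 33 to 40, with 2 libraries of each group in every run), the unstimulated genotype difference of Tfrc was -2.59, -2.18 and -1.49 on the log2(CPM + 0.5) scale. LPS in AhR-deficient cells gave 1.76, 2.08 and 1.45, above 0 in each run.

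Proliferation markers were read beside Tfrc, since dividing cells take up iron. Their summed level without stimulation was 549 to 861 CPM in WT and 581 to 867 CPM in AhR-deficient libraries, and 0 of 7 were called between the genotypes (4.48% of all genes). With LPS, 6 of the 7 were called lower in either genotype (where 11.8% of all genes were called lower in WT and 15.7% in AhR-deficient cells), with sums of 85.1 to 180 CPM in WT and 93.8 to 205 CPM in AhR-deficient libraries. After LPS 2 of the 7 were called lower in AhR-deficient cells (6.19% of all genes), and 1 was called for the interaction (4.3% of all genes). The part of proliferation in the Tfrc differences was not tested. The neutrophil markers, summed over 12 genes, stood at 2165 to 12938 CPM in unstimulated WT libraries and 282 to 827 CPM in unstimulated AhR-deficient libraries, the same direction as Tfrc. After LPS they stood at 863 to 8572 and 163 to 1038 CPM, a gap that Tfrc did not share. The part of neutrophil RNA in it was not tested.

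Trf encodes transferrin, the iron carrier that Tfrc binds (chr9:103204001-103230444, minus strand). Its level varied more between libraries than between genotypes: unstimulated WT libraries ran from 193 to 1165 CPM (median 603) and AhR-deficient ones from 214 to 923 CPM (median 775), and these ranges overlapped nearly whole. After LPS, WT libraries held 85.2 to 751 CPM (median 110) and AhR-deficient libraries 14.4 to 294 CPM (median 93.6). Trf fell with LPS in AhR-deficient cells by 2.29 on the log2 scale (SE 0.66, adjusted p = 0.00614). The ranges overlapped, as stimulated replicates 31 and 32 (294 and 231 CPM) lay above the lowest unstimulated library (214 CPM).

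In WT cells the fitted change of Trf with LPS was -1.38 (SE 0.64, adjusted p = 0.0935) and was not called. It was called in 5 of 11 other settings: when the runs of library numbers entered the fit as a factor (-1.74, adjusted p = 0.0025), with a length slope (-1.86, adjusted p = 7.07e-05), with total library size (adjusted p = 0.0412), with limma-voom (0.0377) and with DESeq2 (0.0496). The range over the 11 was 7.07e-05 to 0.201. It was also called without replicate 29 (-2.11, adjusted p = 0.0107), the WT library with 751 CPM after LPS, while leaving out each library in turn gave adjusted p from 0.0107 to 0.191. The runs differed in level: stimulated WT libraries averaged 110 CPM in run 17 to 24, 556 CPM in run 25 to 32 and 90.7 CPM in run 33 to 40. Within each run the LPS difference lay below 0 in WT cells (-2.21, -0.99 and -1.95) and in AhR-deficient cells (-2.77, -1.76 and -3.41). What sets the runs apart is not stated in the labels. The slope of log2 CPM on log2 gene length in a library, a measure of how far long genes were favoured, was 0.492 to 0.585 in run 25 to 32, 0.0952 to 0.438 in run 17 to 24 and 0.114 to 0.435 in run 33 to 40. Replicates 19 and 33, with the lowest slopes (0.0952 and 0.114), had the lowest unstimulated Trf of their groups (214 and 193 CPM). Between the genotypes Trf was not called without stimulation (-0.03, SE 0.63, 95% interval -1.33 to 1.26) or after LPS (-0.94, SE 0.63, adjusted p = 0.446), and without replicate 29 the latter was -0.21 (adjusted p = 0.924).

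**Figure D3:**
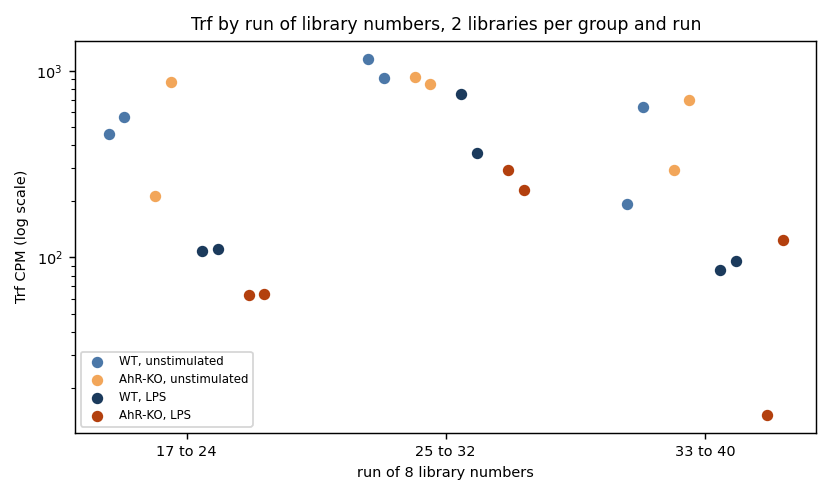
Trf in CPM (log axis) in each library, by run of 8 library numbers; each run holds 2 libraries per group, coloured by group. Run 25 to 32 has the highest stimulated libraries, 231 to 751 CPM, and within every run the stimulated libraries average lower than the unstimulated ones of the same genotype.

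Slc11a2 encodes DMT1, which pumps ferrous iron out of endosomes after uptake with transferrin (chr15:100387898-100425072, minus strand). Unstimulated WT libraries held 24.6 to 59.5 CPM (median 27.6) and unstimulated AhR-deficient libraries 28.2 to 48.2 CPM (median 34). LPS brought WT libraries to 79.0 to 159 CPM (median 90.0) and AhR-deficient libraries to 89.0 to 179 CPM (median 121), with no overlap in either genotype. The rise was 3.17-fold in WT (log2 1.66, SE 0.23, adjusted p = 3.33e-06) and 3.39-fold in AhR-deficient cells (1.76, SE 0.23, adjusted p = 1.02e-06), and the interaction was 0.10 (95% interval -0.56 to 0.76). Between the genotypes the fitted differences were 0.18 (interval -0.28 to 0.65) without stimulation and 0.28 (-0.18 to 0.75) after LPS, neither called. WT replicate 33 stood alone at 59.5 CPM, and without it the unstimulated difference was 0.45 (adjusted p = 0.247).

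Slc11a1 encodes NRAMP1, the metal transporter of the phagosome membrane that keeps iron from engulfed microbes (chr1:74375195-74386062, plus strand). Its levels were 13.3 to 20.6 CPM in unstimulated WT libraries (median 14.9) and 19.2 to 49.3 CPM in unstimulated AhR-deficient libraries (median 34.8). The ranges touched at their edge, and the AhR-deficient level was 2.05-fold higher (log2 1.04, SE 0.20, adjusted p = 0.00143). This fold lay close to the 2-fold limit: leaving out any of 5 single libraries (replicates 19, 25, 28, 34 and 35) brought it just below, to 0.89 at the lowest, with adjusted p still at most 0.00527. Total library size (0.95), limma-voom (0.97) and leaving out the 2 libraries with few Y-linked counts (0.99) did so too. The difference was 0.71, 0.90 and 1.26 in the 3 runs.

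With LPS, Slc11a1 rose in every library. WT libraries reached 289 to 460 CPM (median 313) and AhR-deficient libraries 411 to 639 CPM (median 482), far above the unstimulated libraries of either genotype. The rise was 21.1-fold in WT (log2 4.40, SE 0.23, adjusted p = 7.95e-13), where Slc11a1 ranked 30 of all genes by p, and 15-fold in AhR-deficient cells (3.91, SE 0.22, adjusted p = 1.35e-12). After LPS the genotypes overlapped and differed by 0.54 (SE 0.20, adjusted p = 0.0791), not called. The interaction was -0.49 (SE 0.28, adjusted p = 0.516).

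Slc40a1 encodes ferroportin, the only known iron exporter of mammalian cells (chr1:45908068-45926523, minus strand). Unstimulated libraries held 8.46 to 24.3 CPM in WT (median 9.79) and 5.64 to 16.4 CPM in AhR-deficient cells (median 8.98). After LPS they held 6.55 to 13.6 CPM (median 11.9) and 7.54 to 11.5 CPM (median 11.1), and all groups overlapped. No comparison was called: LPS gave -0.14 in WT (95% interval -0.73 to 0.46) and 0.03 in AhR-deficient cells (-0.57 to 0.62), and genotype gave -0.27 (-0.87 to 0.33) without stimulation and -0.11 (-0.70 to 0.49) after LPS. WT replicate 33 was again the highest library, at 24.3 CPM, and without it the unstimulated genotype difference was 0.07 and the WT LPS difference 0.21.

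Hamp encodes hepcidin, the peptide that binds ferroportin and sends it for degradation (chr7:30942368-30944032, minus strand). It is made chiefly by liver cells and in small amounts by activated myeloid cells. Unstimulated WT libraries held 3 counts in all, in replicate 17, and 0 in the other 5, and a count of 0 allows up to 3 counts in a library by counting error alone. Unstimulated AhR-deficient libraries held 11, 6 and 6 counts in replicates 20, 27 and 35 and 0 in the other 3. After LPS every library had counts, 4.68 to 5.44 CPM in WT (median 5.25) and 8.83 to 29.7 CPM in AhR-deficient cells (median 13.2). Pooled over libraries and scaled, 1698 counts against 3 gave a WT ratio of 707, with a 95% exact counting interval of 241 to 3429.7. In AhR-deficient cells 4982 counts against 23 gave 286, interval 190.2 to 451. Both intervals cover counting error only.

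Because Hamp passed the low-count filter through the LPS libraries alone, its rise with LPS is given as a description. The fitted log2 fold changes of 9.10 and 8.11 depend on the prior count given to libraries at 0: without replicate 17, whose 3 counts are all the WT group holds, the WT value was 11.24. After LPS, all 6 AhR-deficient libraries lay above all 6 WT libraries, by 3.17-fold (log2 1.66, SE 0.54, adjusted p = 0.0447). The WT libraries were close together (5.14 ± 0.280 CPM, SD, n = 6), while the AhR-deficient ones varied (16.3 ± 8.39 CPM), and the difference was 1.23, 2.20 and 0.88 in the 3 runs. The adjusted p rose above 0.05, and the call was lost, when any 1 of 13 libraries was left out. It ranged from 0.029 to 0.122 over the 24 left out in turn and from 2e-04 to 0.0833 over the other settings. Without stimulation, the fitted genotype difference of 2.65 (adjusted p = 0.107 in edgeR) was not called. It was called with DESeq2 (2.95, adjusted p = 0.0242) and in edgeR without replicate 17 (4.79, adjusted p = 0.0255). As it rests on the few counts given above, no comparison of the genotypes is drawn from it.

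Fth1 encodes the ferritin heavy chain, which oxidises iron for storage (chr19:9980598-9985098, plus strand). Unstimulated libraries held 3913 to 7580 CPM in WT (median 6295) and 4821 to 8823 CPM in AhR-deficient cells (median 7479). LPS raised this to 12638 to 40630 CPM in WT (median 23653) and 21529 to 50206 CPM in AhR-deficient cells (median 31148), with no overlap with the unstimulated libraries. Fth1 rose 4.20-fold in WT (log2 2.07, SE 0.26, adjusted p = 9.58e-07) and 4.82-fold in AhR-deficient cells (2.27, SE 0.26, adjusted p = 1.8e-07). It took 1.08 to 3.93% of all counts in stimulated WT libraries and 1.51 to 3.97% in stimulated AhR-deficient libraries, against 0.382 to 1.05% without stimulation. The genotype differences of 0.23 (interval -0.30 to 0.75) and 0.43 (-0.10 to 0.95) were not called.

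Ftl1 encodes the ferritin light chain, which helps the iron core to form (chr7:45457944-45459884, minus strand). Its level stayed within 1672 to 3374 CPM in all 24 libraries. WT libraries held 2165 to 2561 CPM without stimulation (median 2384) and 1672 to 2808 CPM after LPS (median 2377), and AhR-deficient libraries 2556 to 3374 CPM (median 3162) and 2226 to 2980 CPM (median 2613). The change with LPS was -0.00 in WT (95% interval -0.25 to 0.25) and -0.24 in AhR-deficient cells (-0.49 to 0.01), while that of Fth1 exceeded 2 in both. Without stimulation the AhR-deficient level was higher by 0.40 (SE 0.12, adjusted p = 0.0531), which missed the threshold, and the ranges overlapped at their edge.

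Reads of Ftl1 are hard to place, since 78.6% of all 100-base stretches of its transcript also occur in another gene's transcript or pseudogene. The rows of Ftl1-ps1, Ftl2-ps and Ftl1-ps2 took a near constant part: Ftl1 held between 51.4 and 53.1% of the counts of these 4 rows in each of the 24 libraries. Summed over the 4, the unstimulated genotype difference was 0.41 (adjusted p = 0.0482), still under 2-fold. With scaling by total library size the LPS differences of Ftl1 became -0.34 in WT and -0.71 in AhR-deficient cells. Only 0.573% of such stretches of Fth1 occur elsewhere.

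Hmox1 encodes heme oxygenase 1, which opens heme and frees its iron (chr8:75093621-75100589, plus strand). Without stimulation WT libraries held 106 to 157 CPM (median 138) and AhR-deficient libraries 162 to 216 CPM (median 177). The 2 sets did not overlap, yet the fitted difference of 0.43 (SE 0.23, adjusted p = 0.465) was not called. With LPS, WT libraries held 214 to 604 CPM (median 333) and AhR-deficient libraries 400 to 1044 CPM (median 597). Hmox1 rose 2.77-fold in WT (log2 1.47, SE 0.23, adjusted p = 1.97e-05) and 3.78-fold in AhR-deficient cells (1.92, SE 0.24, adjusted p = 4.23e-07).

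After LPS the genotype difference of Hmox1 was 0.87 (SE 0.23, adjusted p = 0.0122), 1.83-fold, which passed the p threshold and not the fold limit. It lay above 0 in each run (0.64, 1.06 and 0.89). Leaving out replicate 29, the highest stimulated WT library at 604 CPM, took it to 1.06 (adjusted p = 0.00213). The interaction of 0.44 (SE 0.32, adjusted p = 0.716) was not called.

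Lcn2 encodes lipocalin 2, a secreted protein also stored in neutrophil granules (chr2:32384633-32388252, minus strand). Unstimulated WT libraries held 37.9 to 166 CPM (median 59.1) and unstimulated AhR-deficient libraries 2.27 to 12 CPM (median 8.06), with no overlap. The AhR-deficient level was 9.44-fold lower (log2 -3.24, SE 0.58, adjusted p = 6.3e-04). Without WT replicate 25, the library at 166 CPM, the difference was -2.80 (adjusted p = 0.00193). Within the runs it was -3.66, -3.39 and -2.31.

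LPS raised Lcn2 to 108 to 1442 CPM in WT (median 373) and 83.0 to 414 CPM in AhR-deficient cells (median 116). In WT cells the rise of 7.95-fold (log2 2.99, SE 0.57, adjusted p = 1.85e-04) left stimulated and unstimulated libraries overlapping. In AhR-deficient cells it was 23.9-fold (4.58, SE 0.62, adjusted p = 1.49e-06) without overlap. The interaction, 1.59 (SE 0.76, adjusted p = 0.359), was not called, so the larger fold was not shown to differ, although with a gene length covariate it was called (1.92, adjusted p = 0.0121). After LPS the genotypes differed by -1.65 (SE 0.54, adjusted p = 0.0482), with overlapping libraries. This call was lost without any of 17 single libraries (adjusted p 0.0158 to 0.196 over all 24, and 0.00312 to 0.121 over the other settings), and without replicate 29, the library at 1442 CPM, the difference was -1.12.

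Neutrophil markers moved with Lcn2 between the genotypes. The same direction was seen in S100a8 (-3.02, adjusted p = 0.0106) and S100a9 (-3.30, adjusted p = 0.00611), abundant neutrophil genes, without stimulation. Among unstimulated WT libraries, Lcn2 was highest in replicate 25, whose 12 neutrophil markers summed to 5228 CPM, and close to its median in replicate 33, at 59.4 CPM, where the markers were highest at 12938 CPM. With LPS, 5 of 11 markers were called lower and 1 higher in WT cells (11.8 and 13.2% of all genes), and 4 lower and 1 higher in AhR-deficient cells (15.7 and 15.1%). The part of neutrophil RNA in the genotype difference of Lcn2 was not tested.

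**Figure D4:**
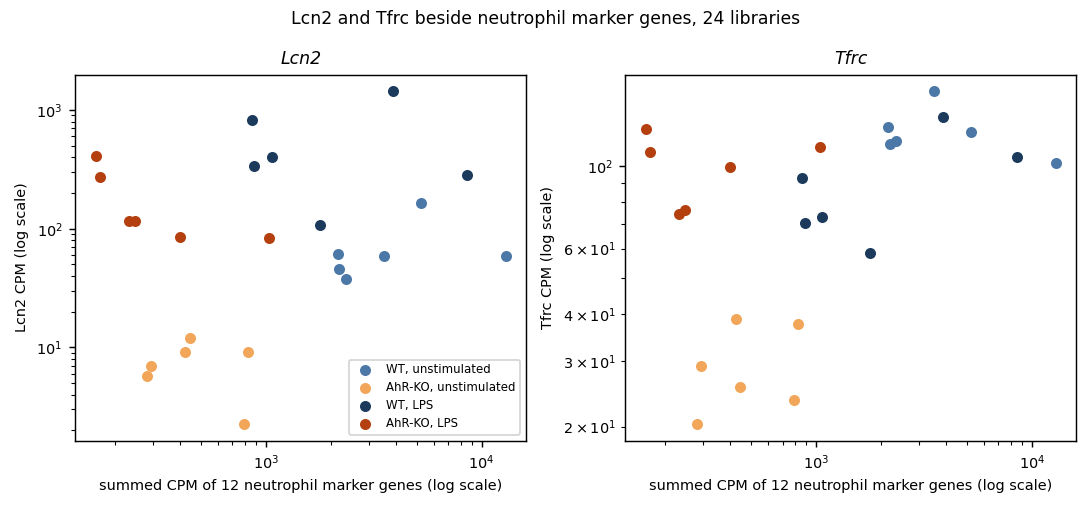
Lcn2 (left) and Tfrc (right) in CPM against the summed CPM of 12 neutrophil marker genes in each of the 24 libraries, both axes logarithmic, coloured by group. Unstimulated AhR-deficient libraries lie low on both axes, while stimulated AhR-deficient libraries have few neutrophil counts (163 to 1038 CPM) and Tfrc within the WT range.

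The other genes of iron metabolism were read from 9 lists chosen for their roles. Between the genotypes, calls in these lists fell on heme handling and iron sequestration. Of 14 heme genes tested, 2 were called higher and 1 lower in AhR-deficient cells without stimulation (median 0.36, where 0.916 and 3.57% of all genes were called) and 2 higher and 2 lower after LPS (median 0.08, where 2.17 and 6.19% were). Blvrb, which reduces biliverdin, was higher in both states (1.17, adjusted p = 0.00651, and 1.04, adjusted p = 0.00993). So was Spic, a transcription factor of heme-recycling macrophages (1.53, adjusted p = 0.0172, and 2.02, adjusted p = 5.83e-04). Haptoglobin (Hp), which binds free haemoglobin, was lower (-1.62, adjusted p = 3.56e-05, and -2.66, adjusted p = 4.94e-08). The transporter gene Flvcr2 was lower after LPS (-1.05, adjusted p = 0.0264).

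Of the 3 sequestration genes tested, 1 was called in each state (3.57 and 6.19% of all genes were called lower). This was Ltf, the lactoferrin gene, which was lower in AhR-deficient cells without stimulation (-3.46, adjusted p = 0.00575) and after LPS (-3.72, adjusted p = 0.00204). Ltf stands in the neutrophil list as well, so this is not separate from the marker counts above. In the lists of uptake and reduction (5 genes tested), storage and ferritin turnover (3), ferroxidases (1), hepcidin control (7), mitochondrial iron and iron-sulfur clusters (10) and NRF2 targets (11), 0 were called between the genotypes in either state, where 4.48% of all genes were called without stimulation and 8.36% after LPS. In lists this short a count of 0 is not far from those shares. At an adjusted p of at most 0.05 whatever the fold, Srxn1 of the NRF2 targets was higher in AhR-deficient cells in both states (0.84, adjusted p = 1.06e-05, and 0.97, adjusted p = 9.64e-07). The heme transporter gene Slc48a1 differed in its response to LPS (interaction -0.85, adjusted p = 0.0188), as its level was higher in AhR-deficient cells without stimulation (0.88, adjusted p = 3.67e-04) and differed by 0.02 after LPS (adjusted p = 0.977).

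The iron regulatory proteins, which read cellular iron and bind iron-responsive elements, are encoded by Aco1 and Ireb2, and Fbxl5 encodes the iron sensor that removes the second of them. None of the 3 was called in any of the 5 comparisons, in which 4.48, 8.36, 24.9, 30.8 and 4.3% of all genes were called. Ireb2 values were small (-0.00 and -0.06 between the genotypes, 0.13 and 0.07 with LPS). Aco1 was lower with LPS in AhR-deficient cells by 0.97 on the log2 scale (adjusted p = 5.96e-04), short of the fold limit, and Fbxl5 higher with LPS in WT cells (0.89, adjusted p = 0.0358). Their proteins are controlled by iron and by turnover, which mRNA levels do not show.

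With LPS, the lists' counts are to be read against the 24.9% of all genes called in WT and the 30.8% called in AhR-deficient cells. Of the 5 uptake genes tested, Steap3, which reduces iron in the endosome, fell by 3.24 in WT and by 4.12 in AhR-deficient cells on the log2 scale (adjusted p = 4.28e-10 and 7.16e-12). Slc39a14, a transporter of iron not bound to transferrin, rose by 1.56 in both (adjusted p = 4.92e-09 and 2.8e-09), and its relative Slc39a8 was called lower in WT (-1.40, adjusted p = 1.9e-04). Ceruloplasmin (Cp), a ferroxidase that works with ferroportin, was higher by 5.04 in WT and 5.05 in AhR-deficient cells (adjusted p = 3.25e-05 and 1.64e-05). Of the storage genes, which include Ncoa4 for ferritin breakdown, 0 of 3 were called with LPS in either genotype (medians -0.23 and -0.27).

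In the heme list, 4 of 14 genes were called higher and 4 lower with LPS in each genotype, where 13.2 and 11.8% of all genes were called in WT and 15.1 and 15.7% in AhR-deficient cells. Alas1, the first enzyme of heme synthesis, rose (2.38, adjusted p = 1.42e-10 in WT, and 2.51, adjusted p = 2.75e-11), as did Spic (3.35 and 3.84) and Hp (2.51 and 1.46). Flvcr2 fell by 4.25 and by 5.73 (adjusted p = 1.05e-09 and 1.18e-11), and Blvra, the other biliverdin reductase gene, was lower too (-1.54 and -1.76). Among NRF2 targets, the oxidative stress genes that share a regulator with Hmox1 and the ferritins, 5 of 11 were called higher in each genotype, with medians of 0.79 and 1.0, where 13.2 and 15.1% of all genes were called higher. Srxn1 rose by 1.77 and 1.90, the cystine transporter gene Slc7a11 by 2.78 and 2.11, Prdx1 by 1.55 and 1.69, and Me1 by 1.74 and 1.38.

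Of 7 genes of hepcidin control tested, 2 were called lower in WT and 2 lower and 2 higher in AhR-deficient cells. In lists this short such counts are not far from the share of all genes called (11.8% lower in WT, 15.1% higher and 15.7% lower in AhR-deficient cells). Hfe was lower (-1.43 and -1.89), and so was Id1, a target of BMP signals in the liver (-1.90 and -1.32). Called in AhR-deficient cells alone were Bmp2 (3.23, adjusted p = 0.0181) and Smad7 (1.21, adjusted p = 0.0182), with interactions that were not called (adjusted p = 0.783 and 0.972). Of 10 mitochondrial genes, 2 were called higher in WT, and 1 higher and 1 lower in AhR-deficient cells, near the shares of all genes (13.2% higher in WT, 15.1% higher and 15.7% lower in AhR-deficient cells). Slc25a37, the mitochondrial iron importer, was higher in both genotypes (1.82 and 1.97), and Iscu was called in WT (1.04). Bdh2, an enzyme reported to make a mammalian siderophore, rose by 4.78 in WT (adjusted p = 8.12e-11) and by 5.96 in AhR-deficient cells (adjusted p = 2.11e-12). Ltf was lower with LPS in AhR-deficient cells (-1.83, adjusted p = 0.0468). Of the 3 sequestration genes tested, 2 lay below 0 with LPS in WT cells and 0 were called lower there. For the interaction 0 were called, so a difference between the genotypes was not shown.

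**Figure D5:**
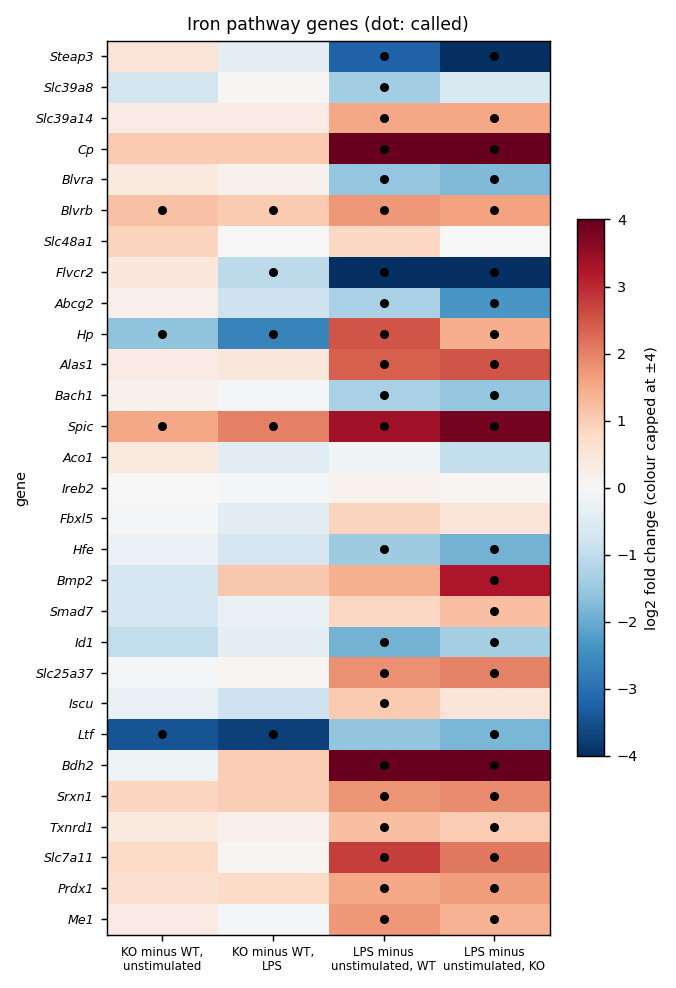
Log2 fold changes (colour, capped at ±4) of 29 genes of the iron lists in 4 comparisons: genes called in at least 1 of the 5 comparisons tested, with Aco1, Ireb2 and Fbxl5. A dot marks a call in the comparison of its column; the LPS columns hold most dots, and Blvrb, Spic, Hp and Ltf are dotted in both genotype columns.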

How the data were processed

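Per the submitters' notes, the authors used GSNAP on mm10 and, for reads with a single alignment, featureCounts 2.0.1 on Ensembl 98 genes, so the deposited values are raw counts; per the labels the library kit kept strand. The deposited table also gives each gene's exon length. The 92 spike-in rows (1 count in all) were left out. Gene symbols came from GENCODE M21, which named 55154 of 55421 identifiers. Counts were fitted over all 24 libraries with edgeR 4.0.16 (TMM, filterByExpr, robust quasi-likelihood), in R 4.3.3, the 4 groups sharing 1 estimate of the spread; SEs derive from the F statistics. Calls needed an adjusted p of at most 0.05 and, except for the interaction, a log2 fold change of at least 1. CPM were scaled by TMM. The fit was tested on simulated data. The 10 genes and the lists were chosen with earlier results of these data known. Named were all 10 genes, up to 4 called genes per list and comparison by p, Aco1, Ireb2 and Fbxl5; Srxn1's genotype values, S100a8, S100a9 and Ahrr were chosen after their values were seen. Libraries were grouped by genotype and stimulation in GEO's labels and are named by their library numbers. The p-values measure the spread between libraries. Alternatives were other scalings, filters, tools (DESeq2, limma-voom), a factor for runs of library numbers, each library's gene length slope as a covariate and each library left out. Depth limits Hamp, which had few counts without LPS. Counting uniquely aligned reads drops those that match a ferritin gene and its pseudogene equally well. 1 gene of the mitochondrial list is not reported here by name.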

Additional observations from a re-analysis of the deposited data

Results flagged for a closer look

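Among 40 sets of 6 libraries (10 genes in 4 groups), 3 held a library far from the others. Chance alone gives about 1 in 20 sets, so this number is near that share. All 3 were in unstimulated WT cells. Replicate 33 stood apart for Slc40a1, at 24.3 CPM with the others at 8.46 to 10.5, and for Slc11a2, at 59.5 CPM with the others at 24.6 to 29.3. The same library had the highest neutrophil marker sum of its group (12938 CPM) and the lowest Trf (193 CPM), and its slope of log2 CPM on log2 gene length was 0.114, with the others at 0.319 to 0.519. Their part in these values was not tested. Replicate 25 stood apart for Lcn2, at 166 CPM, with the others at 37.9 to 60.8.

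The response to LPS differed between the genotypes, by the interaction in edgeR's quasi-likelihood test, for 3 genes named here. For Tfrc the interaction was 2.24 on the log2 scale (adjusted p = 5.34e-05), as described above. For Slc48a1, a heme transporter gene, it was -0.85 (adjusted p = 0.0188): LPS gave 0.84 in WT and -0.02 in AhR-deficient cells. For Ahr itself it was 3.29 (adjusted p = 3.75e-04), read over the whole gene.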

How the results depend on the processing

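Of 1739 recomputed fold changes of the 10 genes, 1646 kept direction and side of the thresholds, 45 lost a call, 11 gained one and 37 changed sign. The Tfrc, Fth1, Hmox1, Slc11a1, Slc11a2 and Lcn2 calls with LPS in AhR-deficient cells were kept in every alternative, as was that of Trf. Slc11a1 without stimulation lost its call with total library size, limma-voom and without the libraries with few Y-linked counts, and Trf with LPS in WT gained one in 5 settings. Hamp without stimulation gained one with DESeq2 and without replicate 17. The number of the 10 genes called without stimulation between the genotypes was 3, and 2 to 4 over the alternatives. The number of the 10 genes called after LPS between the genotypes was 2, and 1 with total library size, with limma-voom, with a mean of at least 1 CPM, with 12 libraries alone and without the 2 libraries with at most 10 Y-linked counts, 0 without a filter, 3 without a minimum fold and 0 to 2 with 1 library left out.

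Signs changed only in differences that were not called. Trf without stimulation was 0.072 with the run factor and -0.22 to 0.21 with 1 library left out. After LPS, total library size gave -0.056 for Ftl1 and -0.074 for Tfrc. Ftl1 with LPS in WT was 0.0057 with DESeq2 size factors and with DESeq2, 0.057 without the libraries with few Y-linked counts, and -0.063 to 0.092 with 1 left out. Slc40a1 was 0.015 with a length slope in WT and -0.40 with total library size in AhR-deficient cells, and with 1 library left out -0.22 to 0.21, -0.092 to 0.24, -0.47 to 0.066 without stimulation and -0.18 to 0.36 for the interaction. The Slc11a2 interaction was -0.043 with total library size, -0.0097 with a length slope and -0.17 to 0.26 with 1 library left out.

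Scaling by total library size moved the median of all genes with LPS from 0.03 to -0.31 in WT and from -0.03 to -0.52 in AhR-deficient cells, and changes are to be read relative to that. With it, the share of all calls that were higher went from 26 to 14.9% between the genotypes after LPS, from 52.8 to 33.9% with LPS in WT, from 49 to 28.2% with LPS in AhR-deficient cells and from 45.4 to 31.4% for the interaction. Over all genes, the 713 interaction calls became 2793 with a length slope, 1201 with the run factor and 1125 with DESeq2. Without a minimum fold, the 1387 genotype calls after LPS became 2096 and the 4137 LPS calls in WT became 6305. The causes of these changes were not tested. No paired analysis was run, because the labels do not say which libraries, if any, came from the same animal. If stimulated and unstimulated cultures shared animals, the tests of LPS left that pairing out. The factor for runs of library numbers groups libraries of all 4 groups and pairs none. The alternative for libraries without Y-linked counts could not be run as planned, since every library had some, and the limit of 10 was chosen after seeing the data. Hamp without LPS is limited by depth.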
